A study of Mus musculus with 4 samples.

Results

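Glutathione transferases of the alpha class (Gsta1, Gsta2, Gsta3 and Gsta4) and the mu class (Gstm1, Gstm2, Gstm3, Gstm4, Gstm5 and Gstm6) were followed across 4 mouse samples hybridised to single-colour Agilent arrays. The members were found by the gene name that the scanner files give each probe, which selected 10 of 30419 genes and 20 of 39429 probes. The alpha class had 5 of these probes and the mu class had 15. The family was selected on measured values, the high log2 differences of Gsta3 and Gsta1 between the transfected tissue and the stem cells, and the remaining members joined it as relatives by name. The family's values in that comparison are therefore a description.

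Glutathione transferases are dimeric enzymes that join the tripeptide glutathione to electrophilic compounds, such as drugs, carcinogens and the reactive aldehydes formed when lipids oxidise. The conjugates are then exported from the cell and broken down. Alpha and mu class enzymes are soluble proteins best known from the liver, and the transcription factor NRF2 induces several of their genes through antioxidant response elements.

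The study asked whether a gene called A directs stem cells to form ligament, and it measured total RNA on 1 array per group. The first group was ligament-like tissue from mesenchymal stem cells of strain C3H that had been transfected with A in the plasmid pCAGGS, and it was set against the same kind of C3H stem cells, which derive from mouse embryos. The other pair was ligament of A transgenic C57BL/6J mice, made by introducing the plasmid into fertilised eggs, and ligament of wild type C57BL/6J mice. The pCAGGS promoter is active in most cell types, and A has no other name in the labels. Ages, the number of animals and any empty plasmid control are not given in the sources used here. Strain and origin (culture or animal) change together, so their shares in a difference between cells and ligament cannot be told apart.

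Each level below is a relative signal, the processed signal of a probe divided by the 75th percentile of its array, so that 1 stands for that percentile. Where a gene had several probes, the probe with the highest mean signal stands for it and the others are given beside it. A probe counts as measured where the scanner software marked it well above background, and a difference of at least 2-fold was called higher or lower. Where only the brighter of 2 arrays passed that mark, the fold is a lower bound, taken against the dimmest passing signal of the other array or the probe's own, whichever was higher. There were no replicates, so no difference was tested. The errors after ± are the scanner software's spot errors of both arrays combined on the log2 scale, and do not cover differences from one culture or animal to the next. For member spots well above background the spot error was 10% at the lowest, 10.0% at the median and 18.9% at the highest. Most errors after ± are thus close to the same constant and are no spread measured for the gene.

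The 75th percentile of processed signal was 2260 in the transfected tissue, 1169 in the stem cells, 303 in the transgenic ligament and 286 in the wild type ligament. Between 48.9% and 56.3% of spots per array were well above background, and no spot was saturated. All 10 members were well above background in the transfected tissue, in the stem cells and in the transgenic ligament, against 7 in the wild type ligament, where Gsta1, Gsta2 and Gstm6 were not. In bulk RNA, fewer cells of a type and less RNA per cell cannot be told apart.

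The probes of the alpha class genes are shown because Gsta1 and Gsta2 are near-identical paralogues, and how far their signals are separate depends on these letters. Capitals in the Gsta1 and Gsta2 probes mark the 4 bases that differ within the 50 bases they share, where 46 bases match. The Gsta3 and Gsta4 probes had no such partner in another gene and carry no capitals.
Gsta1: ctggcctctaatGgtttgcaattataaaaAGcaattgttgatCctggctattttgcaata
Gsta2: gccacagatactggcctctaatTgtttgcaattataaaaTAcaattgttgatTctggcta
Gsta3: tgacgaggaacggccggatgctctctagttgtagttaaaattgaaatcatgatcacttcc
Gsta4: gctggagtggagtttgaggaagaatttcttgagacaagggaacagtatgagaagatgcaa
The files place the Gsta1 probe at chr9:78090411-78090470 (plus strand, mm9), the Gsta2 probe at chr9:78178856-78178915 (minus strand) and the Gsta3 probe at chr1:21255189-21255248 (plus strand). The Gsta4 probe is placed at chr9:78046172-78047344 (plus strand), a span of 1173 bases for a probe of 60, so its ends lie in different exons. Among all probes of the array, those of Gsta1 and Gsta2 were the only member probes like a probe of another gene (at least 30 bases overlapping at 80% identity or more). Besides each other, they resembled the probe of Gm10639, a predicted gene, over 50 bases (82% identity) for Gsta1 and over 60 bases (88.3%) for Gsta2. Signals of these 3 genes may therefore be shared and are uncertain one by one. Only probes were compared with probes, and overlaps under 30 bases were not counted. Whether a probe also matches other parts of a transcript, such as that of another mu class gene, was not tested. Sharing of signal among the mu class genes was therefore not tested either.

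In the transfected tissue 8 of the 10 members were at least 2-fold higher than in the stem cells and none was lower, beside 11.1% of all 17897 genes compared that were higher and 13% that were lower (24.2% either way). The median log2 difference was 2.06 over the members and -0.07 over all genes compared. All 4 alpha class genes were higher (median log2 difference 4.85), as were 4 of 6 mu class genes (median 1.65). The plot of signals by array shows the 10 members side by side.

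**Figure D1:**
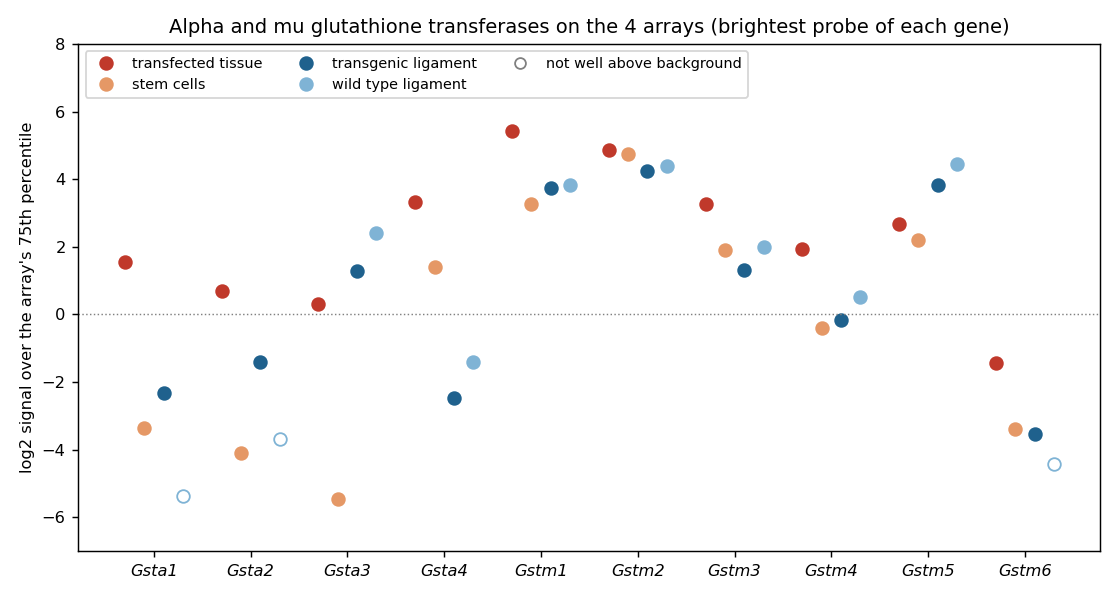
Log2 of the signal over the array's 75th percentile (0 is that percentile) for the brightest probe of each member in the transfected tissue, stem cells, transgenic ligament and wild type ligament, 1 array each, with open circles for signals not well above background. The transfected tissue is highest for 8 members and the wild type ligament for Gsta3 and Gstm5.

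Gsta3, known in mice as the transferase that detoxifies the epoxide of aflatoxin, had a relative signal of 1.23 in the transfected tissue and 0.0226 in the stem cells, against 2.43 in the transgenic ligament and 5.28 in the wild type ligament. By this probe Gsta3 was nearly at background in the stem cells (processed signal 26.4) and highest in the 2 ligaments. The difference between transfected tissue and stem cells was 54.5-fold (log2 5.77 ± 0.31), the 4th highest of 17897 genes. With normexp, a model-based background correction that compresses dim signals, it was smaller, log2 4.06. Its second probe, at chr1:21255043-21255102, read 0.720 in the transfected tissue, 0.0237 in the stem cells, 0.564 in the transgenic ligament and 0.972 in the wild type ligament. That probe gave 30.4-fold for transfected tissue over stem cells (log2 4.93), so both probes placed Gsta3 far above the stem cells. By the second probe the transfected tissue lay between the 2 ligaments, so its order against them depends on the probe.

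Gsta1, a transferase with peroxidase activity towards lipid hydroperoxides, had 2.93 in the transfected tissue and 0.0968 in the stem cells, against 0.198 in the transgenic ligament and 0.0243, not well above background, in the wild type ligament. Transfected tissue stood 30.2-fold above stem cells (log2 4.92 ± 0.22, rank 14; 4.21 with normexp). Gsta2, its closest paralogue, had 1.60 in the transfected tissue and 0.0581 in the stem cells, against 0.373 in the transgenic ligament and 0.0784, not well above background, in the wild type ligament. The transfected tissue was 27.5-fold above the stem cells (log2 4.78 ± 0.25, rank 17), and by log2 3.65 with normexp. Gm10639, whose probe resembles both, had 3.94 in the transfected tissue and 0.152 in the stem cells (25.8-fold), against 0.393 in the transgenic ligament and 0.0805, not well above background, in the wild type ligament. The 3 like probes thus had the same order of arrays for their highest reading, the transfected tissue, and for their second, the transgenic ligament.

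Gsta4, which is specialised for 4-hydroxynonenal and other products of lipid peroxidation, was the member with the most repeated measurement, a probe printed in 10 spots. It had 10.1 in the transfected tissue and 2.62 in the stem cells, against 0.180 in the transgenic ligament and 0.379 in the wild type ligament. The spots of a single array spread by 0.0389 to 0.147 (SD, log2). Both cultured samples were above both ligaments, and the transfected tissue was 3.83-fold above the stem cells (log2 1.94 ± 0.20).

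Among the mu class genes, Gstm1, a major mu class transferase of mouse liver, had 43.0 in the transfected tissue and 9.63 in the stem cells, against 13.4 in the transgenic ligament and 14.1 in the wild type ligament. Transfected tissue was 4.47-fold above stem cells (log2 2.16 ± 0.20, or 2.91 with quantile normalisation), and the other 3 arrays lay between 9.63 and 14.1. The 2 Gstm1 probes are placed on different chromosomes by the files, at chr5:117082490-117082549 for the brighter and at chr3:107815595-107815654 for the dimmer (both minus strand, mm9). The dimmer one lies within the mu class cluster, and it read 21.3 in the transfected tissue, 4.22 in the stem cells, 5.01 in the transgenic ligament and 7.03 in the wild type ligament. Both put the transfected tissue highest, by 4.47-fold and 5.05-fold over the stem cells. The brighter probe is shown because its position differs from that of the gene cluster.
Gstm1: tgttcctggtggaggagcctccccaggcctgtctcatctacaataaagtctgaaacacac

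Gstm4, another mu class transferase, is the member whose probes disagreed in direction. The 2 Gsta3 probes disagreed in size against the wild type ligament, with log2 differences of -2.10 and -0.43 for the transfected tissue. The brighter probe had 3.78 in the transfected tissue and 0.757 in the stem cells, against 0.887 in the transgenic ligament and 1.41 in the wild type ligament. The dimmer probe had 0.208 in the transfected tissue and 0.209 in the stem cells, against 0.515 in the transgenic ligament and 0.742 in the wild type ligament. The brighter probe therefore gave 4.99-fold for transfected tissue over stem cells (log2 2.32 ± 0.20), and the dimmer probe gave a log2 difference of -0.01. Against the wild type ligament they pointed opposite ways, 2.67-fold higher by the brighter probe and 3.57-fold lower by the dimmer. Both are shown because any statement on Gstm4 depends on which one is read: the brighter is placed at chr3:107846495-107846847, across an intron, and the dimmer at chr3:107843802-107843861 (both minus strand, mm9).
Gstm4 brighter: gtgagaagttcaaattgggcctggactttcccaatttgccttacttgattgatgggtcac
Gstm4 dimmer: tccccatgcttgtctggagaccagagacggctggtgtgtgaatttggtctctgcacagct

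Gstm3 had 9.59 in the transfected tissue and 3.78 in the stem cells (2.54-fold, log2 1.34), against 2.48 in the transgenic ligament and 4.01 in the wild type ligament. Its dimmer probe was well above background only in the transfected tissue, at 0.0307. Gstm6 had 0.372 in the transfected tissue and 0.0960 in the stem cells (3.88-fold, log2 1.95), against 0.0859 in the transgenic ligament and 0.0462, not well above background, in the wild type ligament. Of its 5 probes, 2 were not well above background on any array. The remaining 2 Gstm6 probes also put the transfected tissue above the stem cells, by log2 1.70 and by a bound of 1.44.

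Gstm2 and Gstm5 were within 2-fold between transfected tissue and stem cells. Gstm2, whose human counterpart is abundant in muscle, had 29.4 in the transfected tissue and 26.9 in the stem cells (log2 0.13), against 18.9 in the transgenic ligament and 21.1 in the wild type ligament. Its other 2 probes gave log2 differences of 0.14 and 0.24, so all 3 probes stayed within 2-fold. Gstm5, the mouse counterpart of human GSTM3 and a transferase of brain and testis, had 6.37 in the transfected tissue and 4.57 in the stem cells (log2 0.48), against 14.2 in the transgenic ligament and 21.9 in the wild type ligament. Gstm5 was thus higher in both ligaments than in both cultured samples.

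**Figure D2:**
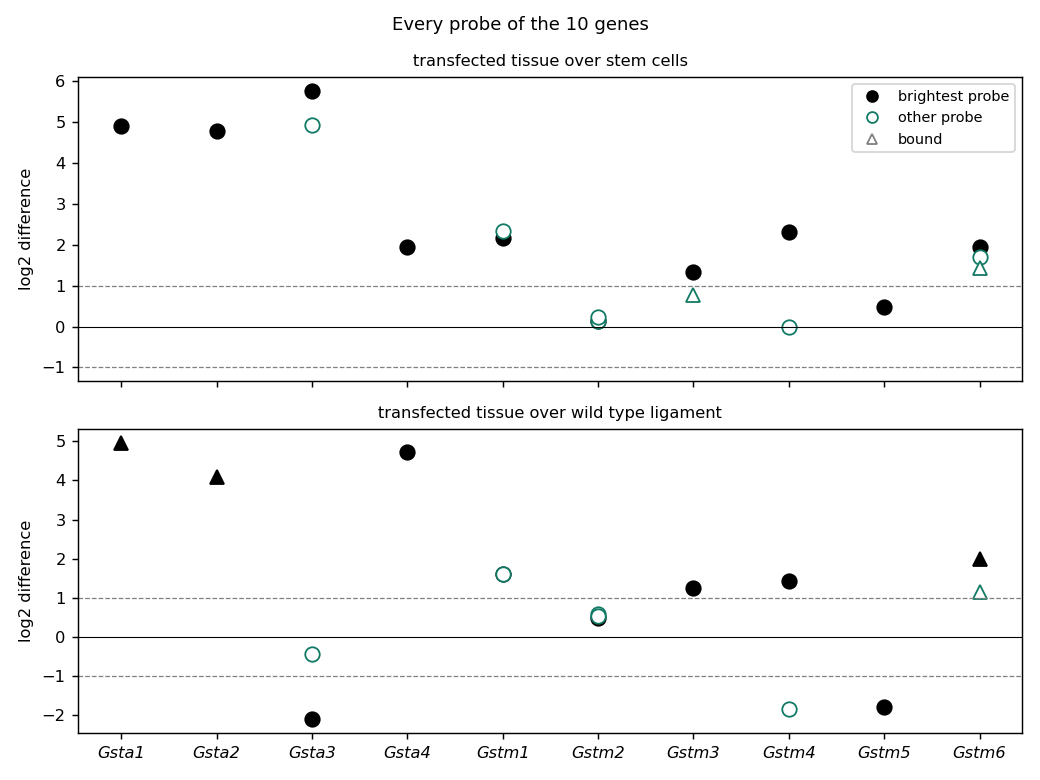
Log2 difference of every member probe that could be compared, for transfected tissue over stem cells (top) and over wild type ligament (bottom), with filled symbols for the brightest probe of a gene, open symbols for its other probes, triangles for bounds and dashed lines at 2-fold. The Gstm4 probes lie at 2.32 and -0.01 in the upper panel and at 1.42 and -1.84 in the lower, while the Gstm1 probes lie close together in both.

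The mu class genes lie next to each other on chromosome 3, in the order Gstm5, Gstm7, Gstm6, Gstm3, Gstm2, Gstm1 and Gstm4 by the positions of their probes in mm9. Measured from the Gstm5 probe, the Gstm7 probe lay 31.0 kb away, the Gstm6 probe 40.7 kb, the Gstm3 probe 68.2 kb, the Gstm2 probe 83.5 kb, the chromosome 3 probe of Gstm1 114 kb and the brighter Gstm4 probe 145 kb. Gstm7, the remaining mu class gene of the cluster, is not among the 10 members and had 0.0544 in the transfected tissue and 0.0222 in the stem cells (2.45-fold). Its stem cell signal was near the dimmest passing signal of that array (0.0180). The other Gstm7 probe compared gave a bound of log2 0.44. The differences between transfected tissue and stem cells did not follow position, since Gstm2 (log2 0.13) sits between Gstm3 (1.34) and Gstm1 (2.34 by its chromosome 3 probe).

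**Figure D3:**
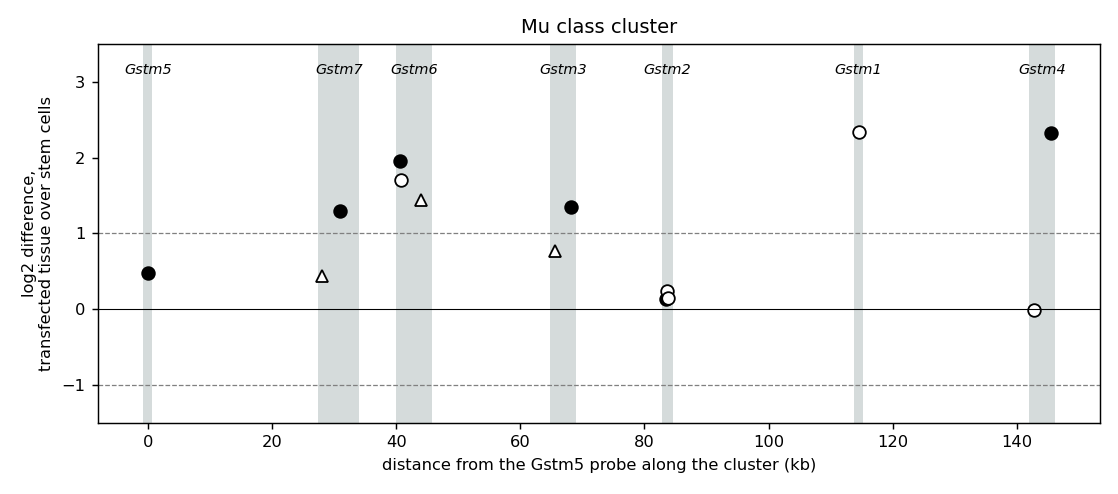
Log2 difference of transfected tissue over stem cells against the distance (kb) of each chromosome 3 probe from the Gstm5 probe, with filled symbols for the brightest probe of a gene, open symbols for its other probes, triangles for bounds, grey bands for the probes of 1 gene and dashed lines at 2-fold. Gstm5 (0.48) and the 3 Gstm2 probes (0.13 to 0.24) lie within 2-fold, between or beside genes above it.

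The transgenic and wild type ligaments differed less. Of the 9 members compared, 2 were higher and 2 lower in the transgenic ligament, beside 6.3% of 16425 genes that were higher and 7.02% that were lower (13.3% either way). The median log2 difference was -0.62 over the members and -0.02 over all genes compared. Gsta1 and Gsta2 were the higher genes, at least 2.11-fold and at least 3.97-fold, both as bounds because neither was well above background in the wild type ligament. Gm10639, with the like probe, was at least 4.18-fold higher. Gsta3 was 2.17-fold lower in the transgenic ligament (log2 -1.12 ± 0.20), and its second probe gave -0.79. Gsta4 was 2.11-fold lower (log2 -1.07 ± 0.25). The calls of Gsta1, Gsta3 and Gsta4 lie close to 2-fold, and all 4 calls depend on the processing: with normexp background correction Gsta1 gave a log2 difference of 0.39, Gsta2 0.73 and Gsta4 -0.60, and Gsta3 gave -0.95 as the mean of its probes and -0.99 in the deposited value table.

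The mu class had no call between the ligaments. Gstm3 (log2 -0.69), Gstm4 (-0.67 and -0.53 by its 2 probes), Gstm5 (-0.62), Gstm2 (-0.16) and Gstm1 (-0.07, and -0.49 by the dimmer probe) were all below 0 and within 2-fold, except that the Gstm1 value turned to 0.07 with quantile normalisation and 0.06 in the deposited value table. Gstm6 was not compared, since it was well above background only in the transgenic ligament and no higher there than the dimmest such signal of the wild type ligament.

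Cell type markers differed between the 2 ligaments, and their counts stand beside 6.3% of all genes higher and 7.02% lower in the transgenic ligament. All 6 neutrophil markers were lower in the transgenic ligament (summed relative signal 416 against 1159 in the wild type ligament), as were all 5 erythroid markers (87.6 against 412), and all 6 epidermis markers were higher (155 against 27.8). Of the tendon and ligament markers, 5 of 6 were higher (summed 41.5 in the transgenic ligament against 11.7 in the wild type ligament, where Mkx was not well above background). Other lists were mostly within 2-fold: 5 of 5 markers compared for skeletal muscle and for endothelium, 5 of 6 for macrophages and for mesenchymal stroma. The same held for 5 of 7 adipocyte and 2 of 3 steroidogenic markers, and the 1 hepatocyte marker compared was lower. The part of these cell types in the values of the transferases was not tested.

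In wild type ligament against stem cells, 2 of the 9 members compared were higher and 1 was lower, beside 37.8% of 16602 genes that were higher and 24.5% that were lower (62.3% either way). Gsta3 was 234-fold higher (log2 7.87 ± 0.31) by its brighter probe and 41.0-fold by its second, and by log2 5.94 with normexp background correction. Gstm5 was 4.80-fold higher (log2 2.26), and Gsta4 was 6.92-fold lower (log2 -2.79). Gstm1 (0.55), Gstm4 (0.90), Gstm3 (0.09, or -0.06 with quantile normalisation) and Gstm2 (-0.35) were within 2-fold, although the dimmer Gstm4 probe gave 3.55-fold. The member median was 0.09, a sign that turned under quantile normalisation (-0.16) and in the deposited value table (-0.17), and the median of all genes was 0.30.

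In transfected tissue against wild type ligament, 7 of the 10 members were higher and 2 lower, beside 23.1% of 16550 genes that were higher and 39.5% that were lower (62.6% either way). Gsta1 was at least 31.2-fold higher, Gsta2 at least 17.1-fold and Gsta4 26.5-fold (log2 4.73). Both bounds were lower with normexp background correction, at log2 3.40 for Gsta1 and 2.38 for Gsta2. Gstm1 was 3.05-fold higher, Gstm3 2.39-fold, Gstm4 2.67-fold by its brighter probe and Gstm6 at least 3.97-fold. With normexp Gstm6 was not called (log2 0.83), nor was Gstm3 by the mean of its probes (0.89), and with quantile normalisation Gstm1 gave log2 2.77 in place of 1.61. Gsta3 was 4.29-fold lower in the transfected tissue (log2 -2.10) by the brighter probe, while the second gave -0.43. Gstm5 was 3.44-fold lower (log2 -1.78, or -1.12 in the deposited value table), and Gstm2 was within 2-fold (0.48) but past it with quantile normalisation (1.53) and in the deposited value table (1.41). The 4 comparisons use the same 4 arrays: the stem cell array stands in 2 of them, the transfected tissue in 2 and the wild type ligament in 3, so their counts are not independent.

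**Figure D4:**
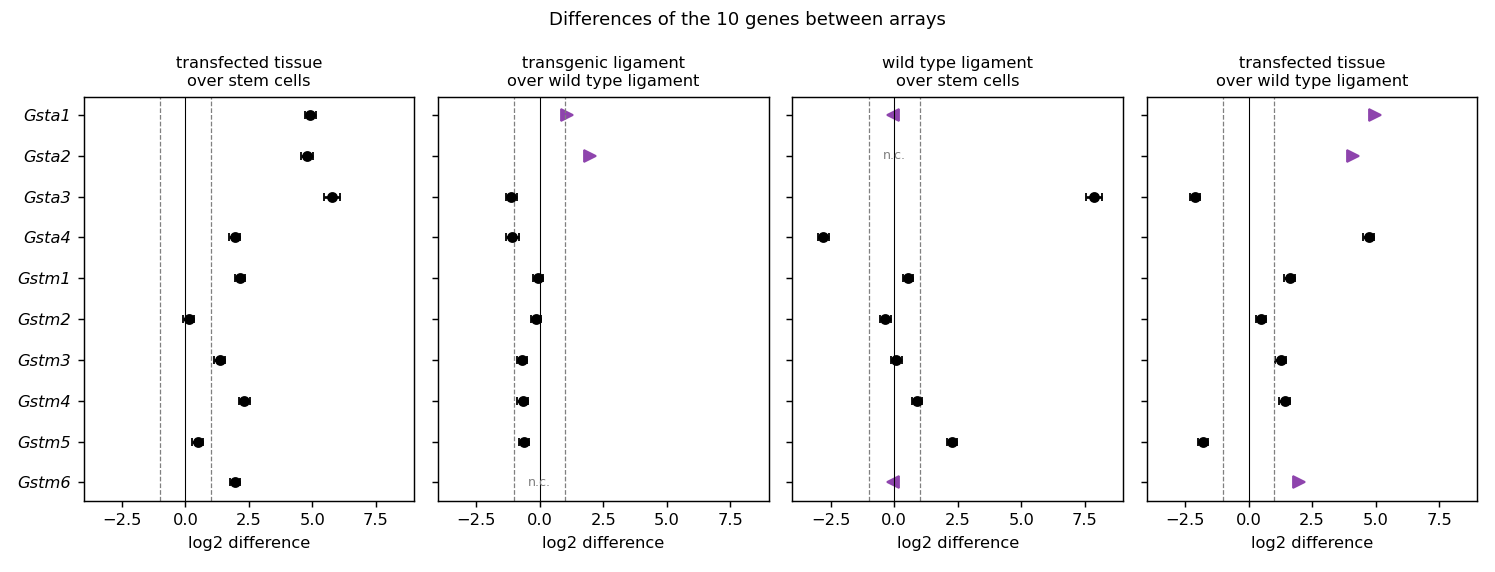
Log2 difference of the brightest probe of each member in the 4 comparisons, 1 panel each, with bars for the spot error, triangles for bounds, dashed lines at 2-fold and n.c. for a gene not compared. Gsta3 stands at 5.77 for transfected tissue over stem cells, -1.12 for transgenic over wild type ligament, 7.87 for wild type ligament over stem cells and -2.10 for transfected tissue over wild type ligament.

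Other cell types were checked in the cultured samples. Of 6 hepatocyte markers, Alb, Apoa1, Ttr and Cps1 were not well above background on any array. A single marker was so on each array, Serpina1a in the cultured samples and Cyp2e1 in the ligaments. The markers' summed relative signal was 0.0478 in the transfected tissue and 0.191 in the stem cells, against 0.707 in the transgenic ligament and 2.49 in the wild type ligament, where Cyp2e1 alone read 2.36. Adipocyte markers were well above background for 6 of 8 in the transfected tissue and 2 of 8 in the stem cells, with Lep and Retn not so in either. They summed to 8.21 in the transfected tissue and 6.29 in the stem cells, against 158 in the transgenic ligament and 166 in the wild type ligament. Of the 6 adipocyte markers compared, 4 were higher in the transfected tissue, beside 11.1% of all genes. These were Adipoq, Plin1, Cfd and Cidec, by bounds from 6.75-fold (Cidec) to 52.8-fold (Cfd). Pparg and Fabp4, the brightest in both cultured samples, were within 2-fold. Tendon and ligament markers summed to 2.00 in the transfected tissue and 3.23 in the stem cells. Of them 1 was called lower, beside 13% of all genes, and Thbs4 was not well above background in the transfected tissue. Skeletal muscle markers summed to 0.630 in the transfected tissue and 1.86 in the stem cells, against 4183 in the transgenic ligament and 5393 in the wild type ligament. Of the skeletal muscle markers compared, 3 of 5 were lower in the transfected tissue. So were 2 of 5 for mesenchymal stroma (Thy1 and Eng) and 2 of 4 for macrophages. Lists with 1 lower were epidermis (of 3), neutrophils (of 3), steroidogenic cells (of 2) and hepatocytes (of 1). For endothelium 1 of 4, Tek, was higher, and no erythroid marker was called. These counts stand beside 11.1% of all genes higher and 13% lower. The part of these cell types in the members' levels was not tested.

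Promoters were searched for the antioxidant response element core TGACNNNGC, which NRF2 binds, on both strands of the window from 250 bases before to 50 after each start (RefSeq, GRCm38.p6). There were 13 windows for 9 members, and the core was in 2 of them, those of Gsta3 and Gstm5, beside 12.4% of the 32851 windows of all genes. The windows with it are shown around the match, which is in capitals: Gsta3 at chr1:21240414-21240513 (plus strand, GRCm38.p6) and Gstm5 at chr3:107895762-107895853 (plus strand, GRCm38.p6).
Gsta3 promoter: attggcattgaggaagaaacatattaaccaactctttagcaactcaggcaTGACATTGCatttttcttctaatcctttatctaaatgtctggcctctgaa
Gstm5 promoter: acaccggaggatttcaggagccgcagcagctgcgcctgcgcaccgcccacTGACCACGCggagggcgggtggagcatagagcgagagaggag
These are matches of letters only. Of the 2 genes, Gsta3 was 54.5-fold higher in the transfected tissue than in the stem cells and Gstm5 was within 2-fold. Sequence outside the windows was not searched, and Gsta4 had no window. The part of such elements in the members' differences was not tested. The xenobiotic response element core GCGTG, bound by the aryl hydrocarbon receptor, was in 32.4% of all windows, and it occurred in windows of Gsta1, Gsta2, Gstm1 and Gstm5. In Gstm5 a match on the minus strand overlaps the antioxidant response element core printed above.

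Glutathione transferases outside the members, 17 genes with Gstm7 among them, were also read in transfected tissue against stem cells. Of 13 that could be compared, 2 were higher and 0 lower, beside 11.1% of all genes higher and 13% lower. Their median log2 difference was 0.15. The 2 were Mgst1, a membrane-bound transferase and peroxidase of the endoplasmic reticulum (8.71 in the transfected tissue, 1.94 in the stem cells, 4.50-fold), and Gstm7. With normexp 1 was higher, and the mean of all probes gave 1 higher and 1 lower. Gstp1, the pi class enzyme of many epithelia and tumours, had 14.5 in the transfected tissue and 9.98 in the stem cells, and Gstp2 had 63.1 in the transfected tissue and 69.9 in the stem cells. The theta class genes were below 0, with Gstt3 at log2 -0.86, Gstt1 at -0.36 and Gstt2 at -0.07, all within 2-fold. Gsto1 (0.15), Gsto2 (0.43), Gstz1 (0.11), Mgst2 (0.81), Mgst3 (-0.95) and Ptges (0.68) were within 2-fold too. Gstk1, a mitochondrial and peroxisomal transferase, was not well above background in either cultured sample and read 9.19 in the transgenic ligament and 9.51 in the wild type ligament. Gstp3, Gstt4 and Hpgds were not well above background on any array.

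Of 17 genes of glutathione synthesis, breakdown, recycling and use compared between transfected tissue and stem cells, 7 were higher and 1 lower, beside 11.1% of all genes higher and 13% lower. Their median log2 difference was 0.09, but 0.60 with quantile normalisation and 0.57 in the deposited value table. The 7 were Gclc, Gclm and Slc7a11, which serve synthesis, and Chac1, which degrades glutathione, Dpep1 and Anpep, which cleave its breakdown products, and Oplah, which recycles oxoproline. Gclc and Gclm encode the catalytic and modifier subunits of the rate-limiting enzyme of glutathione synthesis. Gclm had 1.18 in the transfected tissue and 0.206 in the stem cells (5.69-fold) and Gclc had 4.11 in the transfected tissue and 1.74 in the stem cells (2.36-fold). Slc7a11, which imports cystine, was at least 7.23-fold higher, while glutathione synthetase Gss (log2 -0.29) and glutathione reductase Gsr (-0.14) were within 2-fold. Gpx1, a glutathione peroxidase, was the lower gene (2.83-fold lower, 18.3 in the transfected tissue and 51.6 in the stem cells).

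Genes known as NRF2 targets or partners, a list that shares Gclc, Gclm and Slc7a11 with the last, were higher for 9 of 28 and lower for 1 in transfected tissue against stem cells, with a median log2 difference of 0.57, beside 11.1% of all genes higher and 13% lower. With quantile normalisation 14 of 28 were higher (median 0.90), and 12 of 27 in the deposited value table. Aox1, an aldehyde oxidase, was 13.1-fold higher, and Hmox1, which degrades haem, was 4.78-fold higher (34.6 in the transfected tissue, 7.23 in the stem cells). G6pdx (log2 1.32), Ftl1 (1.21), Mafg (1.05) and Osgin1 (1.04) were higher too, and Maff (-1.12) was the lower gene. Among the genes within 2-fold were Nqo1 (log2 0.41), Nfe2l2, which encodes NRF2 (0.35), and its inhibitor Keap1 (-0.33). Between the ligaments, 2 of 27 were higher and 2 lower in the transgenic ligament (median -0.34), beside 6.3% of all genes higher and 7.02% lower. With normexp, 0 were higher and 1 lower. Gclm was 3.01-fold lower, at 0.102 in the transgenic ligament and 0.307 in the wild type ligament.

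In transfected tissue against stem cells, 11.1% of all genes were higher and 13% lower, and the counts of this paragraph stand beside these shares. Of the aryl hydrocarbon receptor genes, 2 of 8 were higher and 1 lower (1 of 7 higher with normexp). The receptor Ahr itself was the lower one, 7.68-fold (0.552 in the transfected tissue, 4.24 in the stem cells), and Aldh3a1 was 2.68-fold higher. Cyp1a1 and Cyp1a2, classical targets of the receptor, were not well above background on any array. Cyp1b1, another target, read 22.0 in the transfected tissue and 34.6 in the stem cells, within 2-fold. It had 0.125 in the transgenic ligament and 0.103, not well above background, in the wild type ligament. The list of nuclear receptors of xenobiotic response also holds Por, the reductase that passes electrons to cytochromes P450 and no receptor. Por was 2.31-fold higher, and of the 4 receptors compared Nr1i3 was higher, by at least 3.08-fold, while Nr3c1, Rxra and Ppara were within 2-fold. Nr1i2 was not well above background on any array. Conjugate exporters and other conjugating enzymes were higher for 4 of 11 and lower for 1, with Abcc4, an exporter, 5.36-fold higher and Abcc3 2.64-fold lower. With normexp 3 of them were higher, and their median log2 difference was 0.08 in place of 0.50. Enzymes that clear lipid peroxides and aldehydes were higher for 5 of 17, with none lower, among them Ephx2 (at least 15.5-fold) and Aldh1a1 (7.78-fold), and for 8 of 17 with quantile normalisation.

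**Figure D5:**
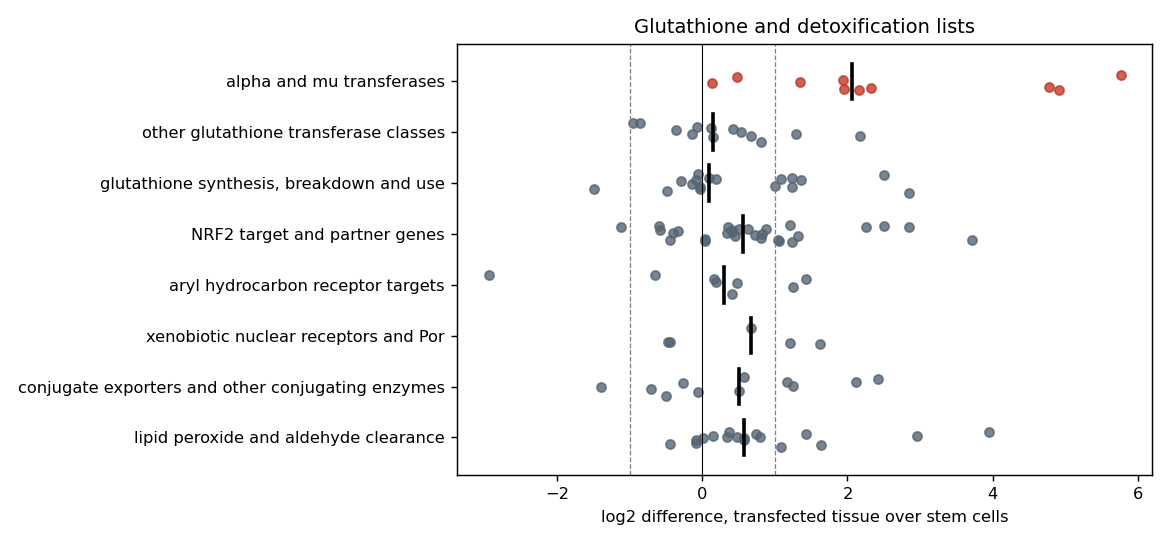
Log2 difference of transfected tissue over stem cells for the members and 7 other lists, 1 point per gene compared (bounds at their value, vertical scatter for legibility), with a black bar at each median and dashed lines at 2-fold. The member median is 2.06, and the other medians run between 0.09 and 0.68, beside -0.07 over all genes.

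Genes with patterns near those of Gsta3 and Gstm1 over the 4 arrays were ranked by the root mean square difference of their log2 signals, each centred on its own mean. The candidates were 10206 genes outside the members, with official-style symbols and well above background on all 4 arrays. For Gsta3 the nearest was Inmt, a methyltransferase, at 0.75, with 0.891 in the transfected tissue, 0.0281 in the stem cells, 6.79 in the transgenic ligament and 11.2 in the wild type ligament. The next were Lama2 (0.89), Cst6 (0.91), Lum (0.92) and Sparcl1 (1.00). No member came near Gsta3, the closest being Gstm5 at 2.32. The Gsta3 ranking used the brighter probe, and the second probe was not ranked. For Gstm1 the ranking used the brighter probe, the one placed on chromosome 5. The nearest were Lrrn4cl (0.076), Chadl (0.11), Rab3il1 (0.12), the exporter Abcc4 (0.13) and Thsd7a (0.15). The dimmer Gstm1 probe itself lay at 0.17, farther than these 5 genes, so their order is finer than the likeness of 2 probes of 1 gene. Gstm4 lay at 0.22 by its brighter probe and 1.32 by its dimmer, and Gstm3 at 0.41. Likeness over 4 arrays is a description of these arrays and rests on few points.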

How the data were processed

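RNA of 4 samples was measured on Agilent mouse arrays, 1 per group. The deposited scanner files hold a spot intensity on a linear scale, background-subtracted and detrended by Feature Extraction, version 10.7.1.1 per the file headers and 9.5.1.1 per the submitters' processing notes; probe positions are mm9. Values in the authors' deposited table are linear intensity too, and how they were normalised is not stated.

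Control and flagged spots were left out, spots of a probe averaged, and log2 of the processed signal taken relative to the array's 75th percentile, with Python 3.11.15. Normexp (limma 3.58.1, R 4.3.3, offset 50) was among 8 alternative settings. The comparison was tested on simulated data. Members were named by the files' gene names, and 26761 of all 39429 probes matched a RefSeq accession, which named the other genes. The text names all members and all other transferases, a selection of genes from each other list, and the 5 nearest patterns. Members and lists were chosen with earlier results of these data known. With 1 array per group, no test was possible and the number of arrays limits the precision.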

Additional observations from a re-analysis of the deposited data

Results flagged for a closer look

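Gsta3 and Gsta4 differed in opposite directions in the 2 contrasts that involve gene A. Gsta3 was higher in the transfected tissue than in the stem cells (log2 5.77) and lower in the transgenic than in the wild type ligament (-1.12). Gsta4 was higher in the transfected tissue (1.94) and lower in the transgenic ligament (-1.07). Each direction rests on 1 array per group, and the difference between the contrasts was not tested.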

How the results depend on the processing

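Under all 8 alternatives, 8 members were higher and 0 lower in transfected tissue than in stem cells. The 2 alternatives that change only the detection filter could not alter this, because every member was well above background on both arrays. It is also the comparison on which the family was selected. Of 24 member differences past 2-fold over the 4 comparisons, 17 kept that call in every setting run, and 10 of 12 that were measured on both arrays and within 2-fold stayed there; the 2 bounds under 2-fold place no gene within it. Between transgenic and wild type ligament, normexp background correction left 0 members higher and 1 lower, and requiring both arrays well above background left 0 higher. The deposited value table and the mean of all probes each left 1 lower. With no detection filter, 3 members were lower in wild type ligament than in stem cells. In transfected tissue against wild type ligament, the both-arrays filter and the mean of all probes each left 4 members higher, and the mean of all probes gave Gstm4 a log2 difference of -0.21, since its probes oppose each other. The causes of the other changes were not tested. Quantile normalisation moved the all-gene median to -0.14 in wild type ligament against stem cells (0.30 as reported, where 37.8% of genes were higher and 24.5% lower, against 30.4% and 30.5%) and to 0.15 in transfected tissue against wild type ligament (-0.41 as reported, 23.1% higher and 39.5% lower, against 29.9% and 29.5%). Normexp called 2.47% of genes higher and 3.45% lower between the ligaments. No paired analysis was possible because each group has 1 array, and no replicate could be left out. Dim probes give bounds only.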

Other observations

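In wild type ligament against stem cells, 12 of 27 NRF2 target and partner genes were lower and 6 higher (median log2 difference -0.75), beside 24.5% of all genes lower and 37.8% higher. Ephx1, a microsomal epoxide hydrolase, was 30.7-fold lower, at 2.31 in the wild type ligament and 71.0 in the stem cells. Hmox1 was 5.09-fold lower, while Me1, the cytosolic malic enzyme, was 5.99-fold higher. In transfected tissue against wild type ligament, 17 of 28 genes of that list were higher and 3 lower (1 lower with quantile normalisation; median 1.36), beside 23.1% of all genes higher and 39.5% lower. Hmox1 was 24.3-fold higher there and G6pdx, which supplies NADPH, 18.1-fold.

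Single glutathione peroxidases had different orders of the 4 arrays. Gpx3, the secreted form, was not well above background in the transfected tissue or the stem cells and read 9.68 in the transgenic ligament and 8.94 in the wild type ligament. Gpx7 was likewise not well above background in either cultured sample, with 0.478 in the transgenic ligament and 0.487 in the wild type ligament. Gpx8, an endoplasmic reticulum form, had the opposite order, with 23.6 in the transfected tissue and 24.1 in the stem cells, against 2.09 in the transgenic ligament and 1.20 in the wild type ligament. Gpx1 had 18.3 in the transfected tissue and 51.6 in the stem cells, against 25.3 in the transgenic ligament and 64.8 in the wild type ligament, so cultured samples and ligaments interleaved. Gpx4, which reduces lipid hydroperoxides in membranes, had 56.3 in the transfected tissue and 59.8 in the stem cells, against 160 in the transgenic ligament and 153 in the wild type ligament. These values compare single arrays, and nothing was tested.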
